A study of Homo sapiens with 6 samples.

Results

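The S100 genes encode small calcium-binding proteins, and 10 of the 12982 genes in the deposited table carried an S100 symbol on the list of members examined here. These were S100A2, S100A3, S100A4, S100A6, S100A10, S100A11, S100A13, S100A14, S100A16 and S100P, found in the table by symbol. The list itself was drawn up with earlier results of these data known, so its counts are a description. RNA was sequenced from SW480, a line established from a human colorectal adenocarcinoma, after 24 h with the solvent DMSO (3 libraries) or with MPM-1, a mitochondria-targeted fluorescent probe molecule that the labels also call WT4 (3 libraries). The cells were labelled wild type and grown in DMEM with fetal bovine serum and L-glutamine. The comparison asked which transcripts differed after the probe. No dose is given in the labels, and SW480 is a single line, so the libraries do not show how other lines respond.

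S100 proteins have a pair of EF-hand motifs, loops that hold calcium, and work mostly as dimers that change shape when calcium rises and then grip a partner protein. Inside cells the partners include annexins, myosin and ezrin, and some S100 proteins are also secreted and act on receptors such as RAGE. In colorectal tumours, S100A4 and S100P are the members best known for links to invasion and spread.

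MPM-1 was followed by a rise in most S100 transcripts and a fall in S100A4 and S100A3. At an adjusted p under 0.05 in edgeR's quasi-likelihood test, 7 of the 10 members rose, against 27.7% of all genes tested. At the same threshold 2 of 10 fell, against 28.8% of all genes, and S100A13 did not pass. These shares were not matched for abundance. By mean FPKM in DMSO, S100A6, S100A4, S100A14, S100A16, S100P, S100A10 and S100A11 ranked 53 to 303 among all genes. The standard errors of their log2 fold changes were 0.09 to 0.11, against 0.19 for S100A2 and 0.35 for S100A3, which were rarer. The median log2 fold change was 0.57 over the 10 members and -0.03 over all genes. Under a stricter rule, where the adjusted p had to be below 0.01 and the log2 change 1 or more in either direction, S100P and S100A11 were higher (2 members, against 5.58% of genes) and S100A4 was lower (1 member, against 8.75%).

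On CPM, the count relative to library size with TMM scaling, the MPM-1 libraries lay above the DMSO libraries without overlap for 8 members, as they did for 31% of all genes, and below them for 2 members, as for 33.3% of all genes. On FPKM, the deposited level per kilobase of transcript, the groups were apart for 8 of the 10. The exceptions on FPKM were S100A6 and S100A13.

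**Figure D1:**
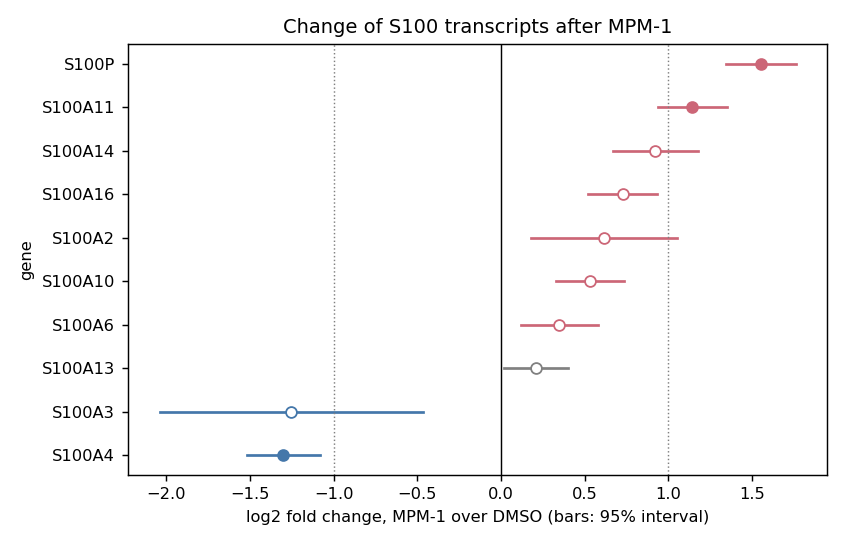
Log2 fold change of MPM-1 over DMSO for each of the 10 S100 genes, from edgeR, with bars for the 95% interval. Filled points pass the stricter rule, pink is higher, blue is lower and grey is not called, and dotted lines mark a log2 change of 1 in either direction. S100P stands highest at 1.55 and S100A4 lowest at -1.30.

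The libraries held between 31733700 and 40269800 counts. The line was checked against its labelled origin with colon epithelial markers, of which 16 of 18 were in the table and at least 15 reached 1 FPKM in each library. Their summed level was 5607 to 6585 FPKM in DMSO and 7844 to 8388 FPKM in MPM-1. Of these markers, 8 were higher (50%, against 27.7% of all genes), 6 were lower (37.5%, against 28.8%) and 2 were not called. The keratins KRT8, KRT18 and KRT19 held most of the sum. Their means were 2124, 1234 and 1206 FPKM in DMSO and 2517, 2049 and 2015 FPKM in MPM-1. The sum hides the 6 lower markers, which were CDX2, KRT20, CDX1, VIL1, CDH17 and HNF4A, at log2 fold changes of -2.20 to -0.43. Under the stricter rule given above, the epithelial factor ELF3 and the adhesion molecule CEACAM6 were higher (log2 fold changes of 1.58 and 1.31). CEACAM6 was low in both groups, at means of 0.39 FPKM in DMSO and 0.88 FPKM in MPM-1. The intestinal factor CDX2 and the keratin KRT20 were lower under the same rule (-2.20 and -2.03). EPCAM, an epithelial adhesion molecule, was not called (-0.00084, adjusted p = 0.995). Of 19 markers of other cell types, 5 were in the table and 3 reached 1 FPKM, and their sum was 49.0 to 62.4 FPKM in DMSO and 79.8 to 84.4 FPKM in MPM-1. CD68, a lysosomal protein used as a macrophage marker, was higher at a log2 fold change of 1.08. CD14 and COL1A1 were lower, and ACTA2 and PDGFRB were not called. The rise of the sum came from CD68 alone, at means of 37.2 FPKM in DMSO and 71.2 FPKM in MPM-1. CD14, COL1A1, ACTA2 and PDGFRB each had a lower mean FPKM in MPM-1. The part of these marker shifts in the S100 results was not tested. From RNA of whole cultures, fewer cells that express a gene and less RNA per cell cannot be told apart.

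The promoters of S100P, S100A4 and S100A11 are shown because these 3 members passed the stricter rule, and because S100P and S100A4 moved in opposite directions. Each runs from 250 bases before to 50 bases after a RefSeq gene start in build GRCh38.p14 and is read on the gene's own strand, 5′ to 3′. Capitals mark 3 motifs, searched on both strands. The letters TATAAA stand for the core promoter element that places the start site. The letters GGGCGG stand for the element bound by SP1-type factors. The letters TGACGT stand for the core of the element that responds to cyclic AMP. S100P lies at chr4:6693628-6693927 on the plus strand, S100A4 at chr1:153545757-153546056 on the minus strand, and S100A11 at chr1:152036955-152037254 on the minus strand.
S100P: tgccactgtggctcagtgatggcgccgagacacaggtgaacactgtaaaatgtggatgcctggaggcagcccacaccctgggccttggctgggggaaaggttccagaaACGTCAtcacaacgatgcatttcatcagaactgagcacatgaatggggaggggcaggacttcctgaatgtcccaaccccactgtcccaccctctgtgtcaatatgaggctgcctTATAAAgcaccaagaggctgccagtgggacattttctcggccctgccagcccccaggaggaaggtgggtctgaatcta
S100A4: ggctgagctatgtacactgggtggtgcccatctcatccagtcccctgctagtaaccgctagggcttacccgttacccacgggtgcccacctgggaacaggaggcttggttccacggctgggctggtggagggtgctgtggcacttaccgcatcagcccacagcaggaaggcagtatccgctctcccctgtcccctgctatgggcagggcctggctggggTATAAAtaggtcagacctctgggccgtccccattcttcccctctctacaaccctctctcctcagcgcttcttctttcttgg
S100A11: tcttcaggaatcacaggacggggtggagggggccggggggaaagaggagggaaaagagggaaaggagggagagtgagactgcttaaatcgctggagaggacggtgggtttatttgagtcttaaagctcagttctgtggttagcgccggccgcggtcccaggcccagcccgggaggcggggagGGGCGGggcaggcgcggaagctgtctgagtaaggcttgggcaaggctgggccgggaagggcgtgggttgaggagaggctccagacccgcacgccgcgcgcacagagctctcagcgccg

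The rising S100P and the falling S100A4 both carried TATAAA, 28 and 31 bases before the start. S100A13 also carried it, and 11.5% of 35116 RefSeq promoter windows held it. Those windows were not limited to genes in the deposited table. S100A11 had no TATAAA in this window and carried GGGCGG 68 bases before the start. Windows of S100A6, S100A10, S100A13, S100A16 and S100A3 also held GGGCGG, at their own positions, against 45.0% of all windows. S100P alone among the members held TGACGT, on the opposite strand as ACGTCA, 142 bases before the start, against 8.0% of all windows. The AP-1 motif TGANTCA was in the windows of S100A2, which rose, and S100A3, which fell, against 7.7% of all windows. TGACNNNGC, an antioxidant response core, was in those of S100A13, S100A14 and S100A16 (13.3% of all windows), CCAAT was in those of S100A13, S100A16 and S100A3 (34.6%), and no member window held the TCF/LEF motif CTTTGAT (2.6%). Both strands were searched, and some members have several windows, 14 in all for the 10 genes. The GC content was 56% for S100P, 60.7% for S100A4 and 65.3% for S100A11, beside a median of 58.7% over all windows.

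S100P had the largest log2 fold change of the 10 members. S100P (ENSG00000163993, chr4:6693069-6697170, plus strand) binds ezrin and RAGE. Its CPM was 561, 440 and 476 in the DMSO libraries and 1395, 1486 and 1452 in the MPM-1 libraries. The lowest MPM-1 library was above the highest DMSO library by a wide gap. The mean rose from 492 ± 62.0 to 1444 ± 45.7 CPM (SD, n = 3 each), a 2.93-fold rise (log2 1.55 ± 0.093 SE, adjusted p = 1.95e-06, edgeR). Its per-length level was 392 ± 41.8 FPKM in DMSO and 1037 ± 52.6 FPKM in MPM-1, which moved it from rank 183 to rank 88 among all genes by mean FPKM.

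S100A4 (ENSG00000196154, chr1:153543613-153550136, minus strand), which binds non-muscle myosin IIA and is tied to cell motility, moved the other way. Its CPM was 497, 447 and 549 in DMSO and 183, 209 and 215 in MPM-1. All MPM-1 libraries lay below all DMSO libraries. The mean fell from 498 ± 51.1 to 202 ± 16.9 CPM (SD, n = 3 each), 2.46-fold lower (log2 -1.30 ± 0.097 SE, adjusted p = 6.59e-06, edgeR). By FPKM, S100A4 went from 856 ± 89.0 to 313 ± 30.5, rank 93 to rank 239.

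The ratio of S100P to S100A4 in FPKM was 0.524, 0.457 and 0.402 in DMSO and 3.54, 3.31 and 3.13 in MPM-1. S100A4 was thus the more abundant of the pair per length in each DMSO library and S100P in each MPM-1 library. In CPM the DMSO order did not hold. The DMSO means were 492 for S100P and 498 for S100A4, and S100P was higher in the first DMSO library (561 against 497). S100P was higher in each MPM-1 library in CPM too. The pair was chosen for its opposite changes, so the ratio is a description with no test.

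S100A11 (ENSG00000163191, chr1:152032506-152047907, minus strand), the partner of annexin A1, had 149, 124 and 122 CPM in DMSO and 283, 288 and 301 CPM in MPM-1. The groups were well apart, and the MPM-1 libraries were the more alike. The mean rose from 132 ± 15.4 to 291 ± 8.84 CPM (SD, n = 3 each; log2 1.14 ± 0.092 SE, adjusted p = 1.03e-05, edgeR). On FPKM it was 226 ± 21.9 and 449 ± 17.5. Its span overlaps an antisense gene, AL450992.1, by 10269 bases, and whether counting used strand is not given in the sources used here.

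S100A10 (ENSG00000197747, chr1:151982915-151994390, minus strand) binds annexin A2 in a complex at the cell membrane and does not need calcium to do so. Its CPM was 303, 302 and 260 in DMSO and 395, 396 and 457 in MPM-1. The groups did not overlap, and the rise was smaller than that of its neighbour S100A11, at a log2 fold change of 0.53 ± 0.091 SE (adjusted p = 0.000876, edgeR). The difference between these neighbours was not tested. In FPKM it went from 245 ± 19.5 to 318 ± 27.1.

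S100A14 and S100A16 lie side by side on chromosome 1 and both rose. S100A14 (ENSG00000189334, chr1:153614255-153616986, minus strand), an epithelial member, had 735, 538 and 546 CPM in DMSO and 1135, 1134 and 1180 CPM in MPM-1. The first DMSO library was the high one of its group, still well below MPM-1. S100A14 rose from 606 ± 112 to 1150 ± 26.2 CPM (SD, n = 3 each; log2 0.92 ± 0.11 SE, adjusted p = 0.00013, edgeR). Without the first DMSO library the log2 change was 1.085, which passed the stricter rule.

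S100A16 (ENSG00000188643, chr1:153606886-153613145, minus strand), a member expressed in many tissues, had 598, 471 and 488 CPM in DMSO and 869, 847 and 861 CPM in MPM-1. Its MPM-1 libraries were close together and above DMSO. It rose by 0.73 ± 0.093 SE on the log2 scale (adjusted p = 0.000155, edgeR). The ratio of S100A14 to S100A16 counts was 1.23, 1.14 and 1.12 in DMSO and 1.31, 1.34 and 1.37 in MPM-1.

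S100A6 (ENSG00000197956, chr1:153534599-153536244, minus strand), which binds the calcyclin-binding protein CACYBP, had the highest mean FPKM of the members in both groups, although in CPM S100P was above it in each MPM-1 library. Its CPM was 1169, 892 and 1017 in DMSO and 1181, 1362 and 1377 in MPM-1. The first DMSO library and the first MPM-1 library nearly touched, and in FPKM, at 1770, 1400 and 1587 against 1612, 1930 and 1913, they crossed. The rise was 0.35 ± 0.10 SE on the log2 scale (adjusted p = 0.0165, edgeR). It was 0.20 with an adjusted p of 0.101 when counts were scaled by library size alone, and 0.20 with 0.135 in limma on log2(FPKM + 0.1), where the median of all genes moved to -0.18 and -0.15. Without the second DMSO library the adjusted p was 0.0547, and without the third MPM-1 library 0.0545. Its span also overlaps an antisense gene, BX470102.1, by 517 bases.

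S100A2 (ENSG00000196754, chr1:153561108-153567890, minus strand) was near the low end. It had 252, 230 and 211 counts in DMSO and 312, 266 and 305 counts in MPM-1, or 7.64, 5.33 and 5.30 CPM and 10.2, 8.65 and 9.08 CPM. The groups did not overlap, though the first DMSO library was nearer to MPM-1 than the others were. The log2 rise was 0.62 ± 0.19 SE (adjusted p = 0.0216, edgeR), and it no longer passed when counts were scaled by library size alone (adjusted p = 0.0576) or without the second DMSO library (adjusted p = 0.0840), the third DMSO library (adjusted p = 0.0818) or the first MPM-1 library (adjusted p = 0.0501).

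S100A13 (ENSG00000189171, chr1:153618787-153631360, minus strand), which takes part in the release of FGF1 from cells, did not pass. It had 51.5, 47.5 and 53.1 CPM in DMSO and 61.3, 60.5 and 54.1 CPM in MPM-1. The groups were narrowly apart on this scale and overlapped in FPKM. The log2 fold change was 0.21 (95% interval 0.02 to 0.40, adjusted p = 0.0570, edgeR). DESeq2's test gave 0.23 with an adjusted p of 0.0457, DESeq2's size factors 0.0421 and the fit without the third MPM-1 library 0.0353. AL162258.1 overlaps it by 5029 bases on the same strand and S100A1 by 3435 bases on the other strand. Neither was found in the table, so neither was analysed here.

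S100A3 (ENSG00000188015, chr1:153547329-153549372, minus strand), known from the hair cuticle, was the rarest member. It had 131, 137 and 152 counts in DMSO and 23, 59 and 64 counts in MPM-1. The first MPM-1 library was lowest, and all MPM-1 libraries were below DMSO. The log2 change was -1.25 ± 0.35 SE (adjusted p = 0.0127, edgeR). The gene lies wholly within the GENCODE span of S100A4 on the same strand, 2044 bases. A change in S100A3 and reads from S100A4 assigned to it therefore cannot be told apart. The S100A4 start shown above lies outside S100A3, and a transcript from that start would not cross it. The overlap is with the part of the S100A4 span further upstream. Which S100A4 start these cells used was not tested. S100A3 counts were 0.799%, 0.710% and 0.695% of S100A4 counts in DMSO and 0.413%, 0.920% and 0.888% in MPM-1, ranges that overlapped.

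**Figure D2:**
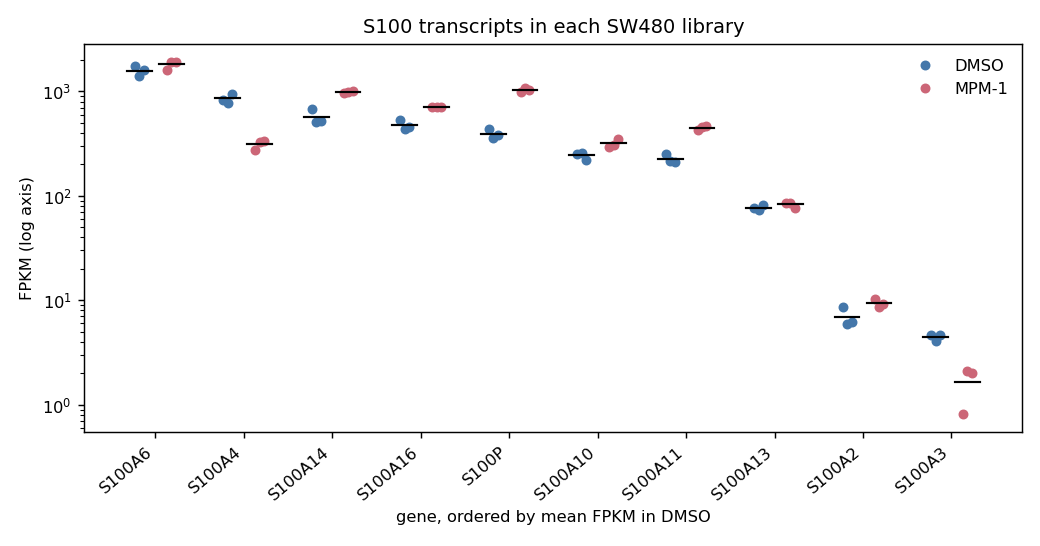
FPKM of each S100 gene in each library on a log axis, with DMSO in blue, MPM-1 in pink and black lines at the mean of 3 libraries, ordered by the DMSO mean. S100A4 alone among the abundant members has its MPM-1 points below its DMSO points, and S100A3 shows the same at means of 4.48 and 1.64 FPKM.

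Per length, the DMSO order was S100A6, S100A4, S100A14, S100A16, S100P, S100A10, S100A11, S100A13, S100A2 and S100A3. The ranges over libraries overlapped between S100A14 and S100A16, between S100A16 and S100P, and between S100A10 and S100A11. With MPM-1 the order was S100A6, S100P, S100A14, S100A16, S100A11, S100A10, S100A4, S100A13, S100A2 and S100A3, with overlap between S100P and S100A14 and between S100A10 and S100A4. S100A6 kept the top place with a mean of 1586 FPKM in DMSO and 1818 FPKM in MPM-1, and S100A3 kept the last with 4.48 and 1.64 FPKM. Annotated coding transcripts differ in length, from 1279 bases for S100P to 453 bases for the shortest of S100A2, and the lengths behind the FPKM values are not given in the sources used here.

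Summed over the 10 members, S100 FPKM was 4846, 4044 and 4421 in DMSO and 5358, 5900 and 5900 in MPM-1, so the MPM-1 libraries were all higher. S100 counts made up 0.419%, 0.351% and 0.373% of the library in DMSO and 0.513%, 0.561% and 0.560% in MPM-1. Within the S100 sum, the mean share of S100A4 went from 19.3% to 5.46% and that of S100P from 8.83% to 18.1%. S100A14 went from 12.8% to 17.1%, S100A16 from 10.7% to 12.5% and S100A11 from 5.10% to 7.86%. S100A10 had 5.55% and 5.56%, and S100A6 held the most in both groups, at 35.7% and 31.7%. S100A2 had 0.155% and 0.166%, and S100A3 0.101% and 0.0283%.

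**Figure D3:**
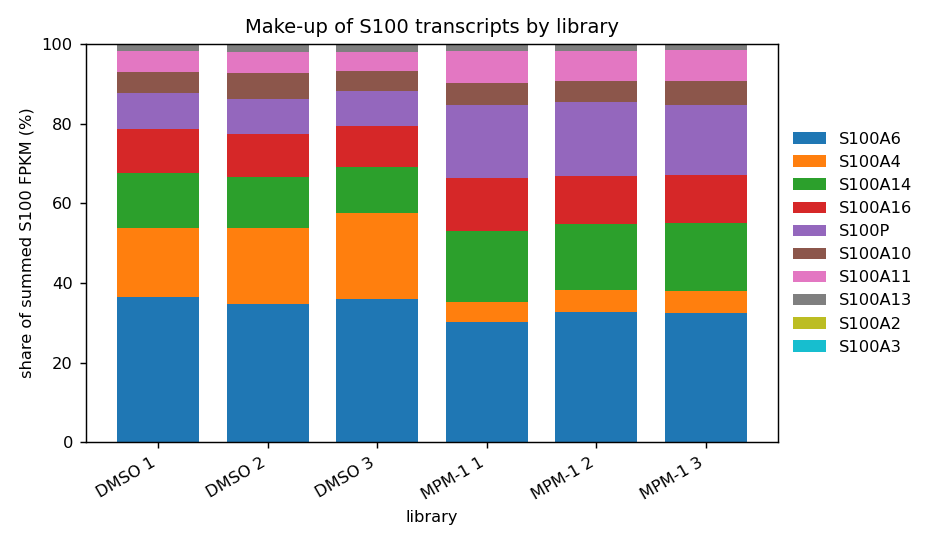
Share of each S100 gene in the summed S100 FPKM of each library, in percent. The S100A4 band averages 19.3% in DMSO and 5.46% in MPM-1, and the S100P band 8.83% and 18.1%.

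Of the members, 9 lie on chromosome 1 and S100P on chromosome 4. From S100A6 to S100A13 the cluster spans 96.8 kb, and S100A11, 38.1 kb from S100A10, lies 1487 kb from S100A6. S100A4 and S100A3 fell, while S100A6 on one side and S100A2 on the other rose. Of 14 alternative fits, S100A6 was called in 8 and S100A2 in 10. A change in S100A3 cannot be told apart from S100A4 reads assigned to it, as given above. Of the other genes beside the cluster on 1q21, 25 of 58 were in the table, 7 were higher (28%, against 27.7% of all genes), 3 were lower (12%, against 28.8%) and 15 were not called, with a median log2 fold change of 0.05. TUFT1, an enamel matrix gene named for its size among these, was higher at 1.27 (adjusted p = 3.75e-05, edgeR), from 8.76 to 21.2 CPM.

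**Figure D4:**
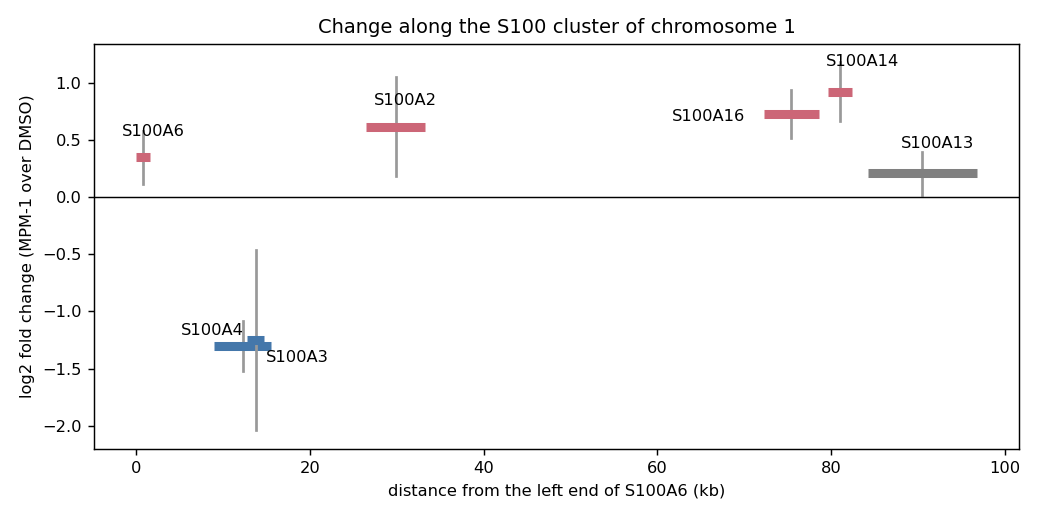
Log2 fold change of MPM-1 over DMSO, with grey lines for the 95% interval, against distance in kb from the left end of S100A6 along chromosome 1. Thick bars are gene spans, pink for higher, blue for lower and grey for not called. S100A4 and S100A3 lie below 0 at 9.01 to 15.5 kb, with S100A6 and S100A2 above 0 on either side.

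The partners of the members were taken from lists made for this purpose. Of 13 annexins, which bind membranes when calcium rises and pair with several S100 proteins, 9 were in the table, of which 7 were higher (77.8%, against 27.7% of all genes), 1 was lower (11.1%, against 28.8%) and 1 was not called, with a median log2 fold change of 0.67. ANXA1, the partner of S100A11, had 1718, 1785 and 1560 counts in DMSO and 14235, 18265 and 16499 in MPM-1, and rose by 3.55 ± 0.14 SE on the log2 scale (adjusted p = 2.44e-07, edgeR). ANXA2, the partner of S100A10, rose by 0.67 (adjusted p = 3.60e-05) from 900 to 1435 CPM. ANXA5 rose by 1.76 and ANXA6 was lower, at -1.05. ANXA9 was not called.

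Of 39 binding partners and receptors, 30 were in the table, with 13 higher (43.3%, against 27.7% of all genes), 7 lower (23.3%, against 28.8%) and 10 not called, and a median of 0.18. EZR (ezrin, partner of S100P) rose by 1.32 (adjusted p = 1.58e-05) from 583 to 1457 CPM. AHNAK, which binds the S100A10 and annexin A2 complex, rose by 0.78 (adjusted p = 6.16e-05), and so did MYH9, the heavy chain that S100A4 binds, by 0.78 (adjusted p = 0.000204), while S100A4 itself fell. AGER, which encodes RAGE, was lower at -0.76 (adjusted p = 0.0116) from 5.65 to 3.33 CPM. CACYBP (-0.06, adjusted p = 0.538) and S100PBP (-0.17, adjusted p = 0.281) were not called. Under the stricter rule the list's 2 largest rises were TRPV6, an epithelial calcium channel, at 3.11, and PLAUR, the urokinase receptor, at 2.26. The 2 largest falls were PLAT, tissue plasminogen activator, at -1.75, and ASIC1, an ion channel, at -1.17. TRPV6 and PLAT were low. TRPV6 had 12, 11 and 30 counts in DMSO and 123, 132 and 120 in MPM-1. PLAT had 142, 135 and 64 counts in DMSO and 27, 30 and 27 in MPM-1.

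Of 70 other EF-hand proteins, 59 were in the table, with 20 higher (33.9%, against 27.7% of all genes), 14 lower (23.7%, against 28.8%) and 25 not called, and a median of 0.06. CALB2 (calretinin) and SLC25A25, a mitochondrial carrier, rose by 2.30 and 1.85. HPCAL4 and MYL9, a myosin light chain, were lower at -3.67 and -2.52, both from low counts. HPCAL4 had 115, 103 and 95 counts in DMSO and 9, 6 and 5 in MPM-1. MYL9 had 58, 72 and 60 counts in DMSO and 7, 7 and 13 in MPM-1. Of 32 transcription factors linked to S100 genes, 29 were in the table, with 17 higher (58.6%, against 27.7% of all genes), 5 lower (17.2%, against 28.8%) and 7 not called, and a median of 0.28. ETS1 rose by 3.23 from 1.59 to 14.9 CPM and JUNB by 1.82, and MYC was lower at -1.64. The transcript of CTNNB1 (beta-catenin, a regulator of S100A4 in colon cells) rose by 0.28 (adjusted p = 0.0122, edgeR). This is RNA only, and the study's Western blots reported less beta-catenin protein after MPM-1. None of 12 further S100 genes was found in the table, so none was analysed here.

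**Figure D5:**
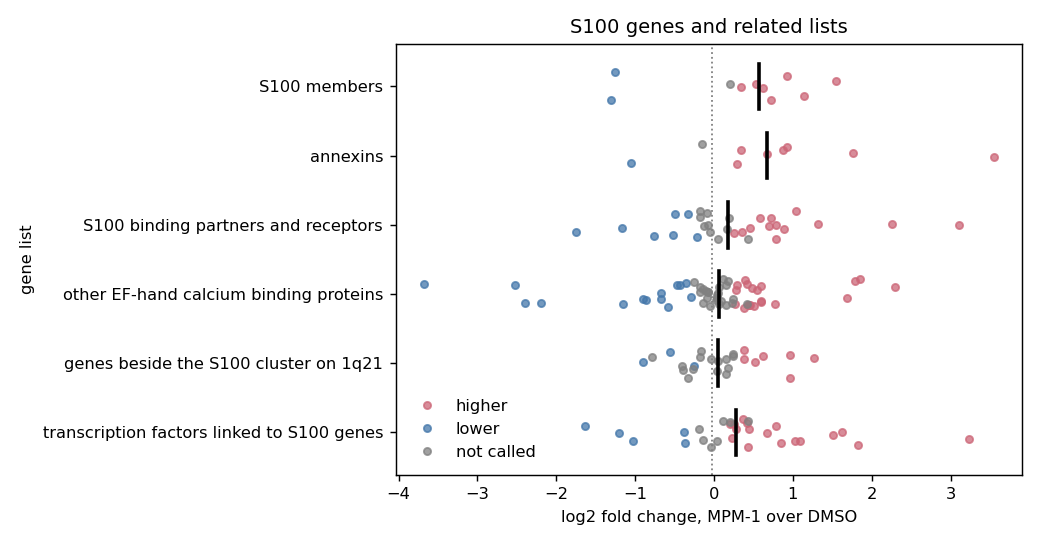
Log2 fold change of MPM-1 over DMSO for each gene of the S100 set and of 5 related lists, 1 point a gene, pink for higher, blue for lower and grey for not called, with a black line at each list's median and a dotted line at the median of all genes, -0.03. The S100 median is 0.57 and the annexin median 0.67.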

How the data were processed

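RNA was sequenced from SW480 cells, 3 libraries with DMSO and 3 with MPM-1, all at 24 h. The deposited table gave whole-number counts and FPKM per gene and library, both made by the authors. Counts were raw, and FPKM was fragments scaled to transcript length and library size. The submitters' processing notes name HISAT2, DESeq2 and mm10, a mouse build, although the identifiers are human; the counter and annotation are not given in the sources used here. The authors' own columns of fold change and FDR were not used. Nothing says the libraries came from separate cultures, so p-values measure the spread between these libraries, which may be technical.

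Counts were tested with edgeR 4.0.16 in R 4.3.3, by the quasi-likelihood test with TMM scaling, no covariates and Benjamini-Hochberg adjustment over all 12982 genes. The deposited table held no gene with fewer than 115 counts in all. Calls needed an adjusted p under 0.05. Alternatives used DESeq2 1.42.0, other scalings, a minimum mean of 50 counts, limma 3.58.1 on log2(FPKM + 0.1) with other pseudocounts of 1 and 0.01 and a mean of at least 1 FPKM, a replicate block, and leaving out each library. The test was checked on simulated counts. Of 200 genes given a log2 change of 2 in either direction, 196 were recovered, and 17 unchanged genes were called falsely. Every S100 member changed by less than that, and the data had 3596 genes higher and 3740 lower. The simulation therefore does not show how the test or the scaling performs under those conditions. A floor of 3 counts in a library was 0.0695 to 0.0985 CPM, which covers counting error only.

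Gene positions came from GENCODE 29 (GRCh38), promoters from RefSeq (GRCh38.p14); 12127 identifiers of the table were found in GENCODE 29. Named genes were all members, fixed partners, and from each list other than the marker lists the 2 largest rises and 2 largest falls under the stricter rule (adjusted p under 0.01, log2 change of at least 1) with groups apart. ANXA9 and the named cell type markers fall outside it and were chosen after their values were seen. One fixed partner is not reported here. Members and lists were chosen with earlier results of these data known.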

Additional observations from a re-analysis of the deposited data

How the results depend on the processing

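No member changed direction under any alternative. Of 140 alternative values of single members, 127 stayed on the same side of the threshold, 10 no longer passed and 3 newly passed, and those belonged to S100A2, S100A6 and S100A13. Members called lower numbered 1 at an adjusted p under 0.01, where S100A3 was lost. Under the stricter rule, 1 member was higher with library size alone and with limma on FPKM at pseudocounts of 0.1, 1 and 0.01, where S100A11 had log2 changes of 0.992 to 0.995, and 2 were lower with library size alone, DESeq2's test and the same limma fits, where S100A3 joined S100A4. Members called higher ranged from 5 to 7 as each library was left out. They numbered 5 with library size alone, 5 at an adjusted p under 0.01 and 6 in each limma fit on FPKM. With DESeq2's size factors or DESeq2's test they numbered 8. The same scaling by library size gave 2589 genes higher and 4871 lower, against 3596 and 3740. Leaving out each library gave log2 changes of 1.48 to 1.66 for S100P and -1.37 to -1.22 for S100A4. The replicate numbers were taken to name libraries only. Deviations of same-numbered libraries from their group means had r = 0.0214, 0.114 and -0.0737, beside -0.130 to 0.115 for the other pairs. With 3 libraries a group, these values cannot show whether same-numbered libraries shared handling. With a replicate block 7 members were higher and 2 lower, and S100P had a log2 change of 1.56. Depth limits S100A3 most, with 23 counts in its lowest library.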
